A study of Homo sapiens with 2 samples.

Results

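The long arm of chromosome 20, 20q, carried 301 of the 12688 oestrogen receptor α (ERα) peaks listed for estradiol-treated T47D cells. Its members are the peaks on chromosome 20 that start above position 29300000 of the hg19 build. The short arm, 20p, is the peaks that end below 26400000, and it held the other 110 of the 411 peaks on the chromosome, so that 0 lay between these limits. The first 20q peak began at 30147507 and the last 20p peak ended at 25604662.

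T47D is an established ERα-positive human breast cancer line. The ChIP library is DNA recovered with the H-20 antibody to ERα, and the input library is DNA that went through no antibody step. Both come from cells held for 48 h in medium stripped of steroids and then exposed to 10 nM 17β-estradiol for 45 min, so there is no untreated group and no value below measures a response to the hormone. There was 1 library of each kind and 1 peak list, made for the ChIP library over the input library. No value therefore has a replicate error, the read depth is unknown from the file, and no p-value is given. The 95% intervals cover counting error or the spread among peaks only, and they take neighbouring peaks for independent ones, which is not so where peaks cluster. The list gives no copy number.

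ERα is a nuclear receptor that, once bound by estradiol, attaches to DNA at oestrogen response elements or through other factors such as FOXA1, mostly at enhancers far from gene starts. The long arm of chromosome 20 is among the regions most often gained in breast tumours. Its bands carry the coactivator gene NCOA3 at 20q13.12, the guanine exchange factor gene PREX1, the transcription factor gene CEBPB and the phosphatase gene PTPN1 at 20q13.13, the zinc finger gene ZNF217, the vitamin D hydroxylase gene CYP24A1 and the kinase gene AURKA at 20q13.2, and the transcription factor gene TFAP2C and the growth factor gene BMP7 at 20q13.31. These placements are background. No gene annotation of hg19 was used here, so no peak is assigned to any of these genes, and no sequence under a peak is shown.

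ERα peaks were about as frequent on 20p as in the genome at large and more than that on 20q. The density was 8.92 peaks per Mb on 20q (exact Poisson 95% interval 7.95 to 9.99), against 4.17 on 20p (3.42 to 5.02) and 4.12 on chromosomes 1 to 19, 21, 22 and X (4.04 to 4.19). The ratio of 20q to 20p was 2.14 (exact conditional interval 1.72 to 2.69), and that of 20q to the other chromosomes was 2.17 (1.93 to 2.43). For 20p the ratio to the other chromosomes was 1.01 (0.831 to 1.22), an interval that includes 1. With 1.11% of the sequence of chromosomes 1 to 22 and X, 20q held 2.37% of all listed peaks.

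The excess on 20q was also present among higher-scoring peaks and in both kinds of chromosome band. For peaks that reach the median score of the list the ratio of 20q to 20p was 2.12 (1.54 to 2.95), and for those that reach its upper quartile, 347.16, it was 1.96 (1.25 to 3.15). Bands that stain lightly with Giemsa are as a rule rich in genes, and dark bands are poorer. In light bands the density was 12.4 per Mb on 20q (10.7 to 14.2) and 5.37 on 20p (4.25 to 6.70). In dark bands it was 5.90 on 20q (4.82 to 7.14) and 2.75 on 20p (1.86 to 3.93). The ratio of 20q to 20p was thus 2.30 in light and 2.14 in dark bands. That of 20q to the other chromosomes was 2.27 (1.96 to 2.62) in light and 1.66 (1.36 to 2.02) in dark bands, with overlapping intervals. Gene number narrowed the difference between 20q and 20p. The RefSeq table of GRCh38.p14 was used here for gene order and gene counts only. Divided at its longest stretch without a protein-coding gene, it has 357 protein-coding genes on 20q and 180 on 20p. Peaks of hg19 set against these counts of another build give 0.843 peaks per gene on 20q and 0.611 on 20p, a ratio of 1.38 (1.11 to 1.73).

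**Figure D1:**
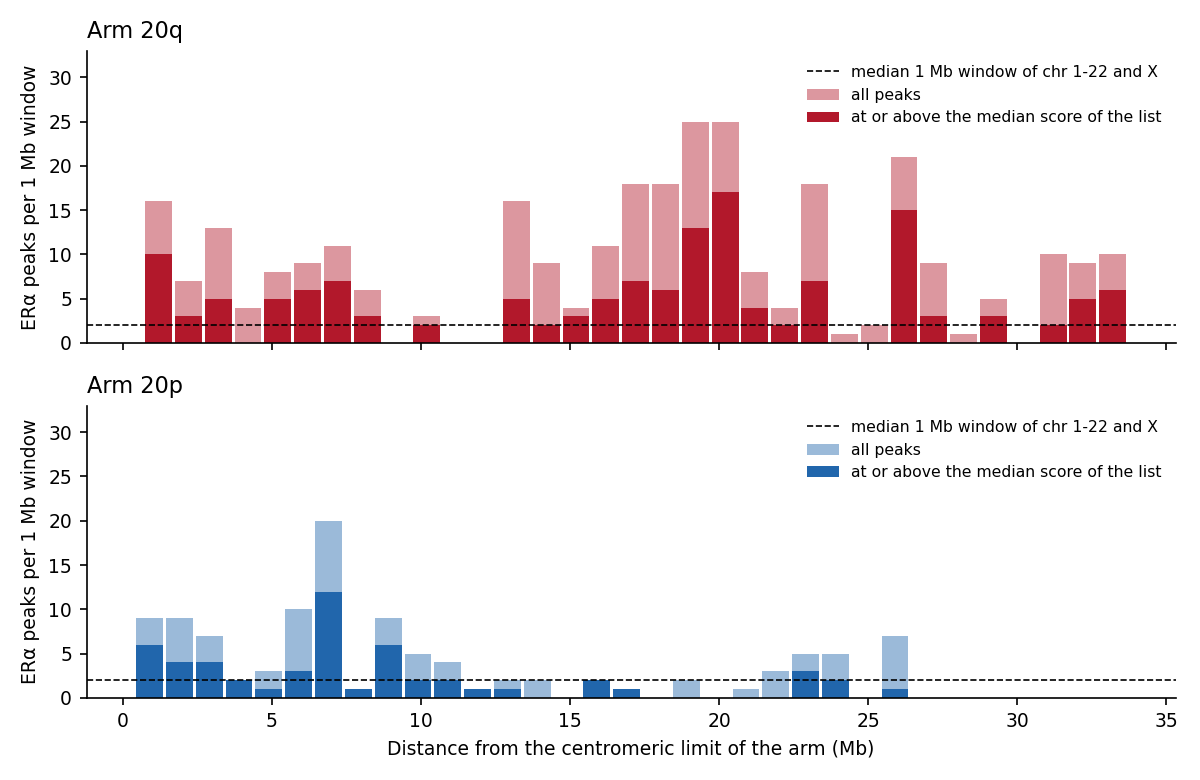
Number of ERα peaks in each full 1 Mb window (vertical axis) by distance from the centromeric limit of the arm in Mb (horizontal axis), with 20q above 20p. Dark bars are peaks that reach the median score of the whole list, pale bars are all peaks, and the dashed line is the median window of chromosomes 1 to 22 and X, 2 peaks. On 20q the tallest bars, of 25 peaks each, stand side by side, and the tallest bar on 20p has 20 peaks.

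The peaks were unevenly spread along 20q, and more of its windows were densely filled than on 20p or in the genome. The 33 full windows of 1 Mb held a median of 9 peaks (quartiles 4 and 13), against 2.5 (1 and 6.5) in the 26 windows of 20p and 2 in the genome. On 20q, 13 of the 33 windows (39.4%) held at least 10 peaks, against 2 of 26 on 20p, where the share over all 3053 windows of chromosomes 1 to 22 and X was 13.2%. Windows with at least 20 peaks numbered 3 on 20q and 1 on 20p, beside 1.97% of windows in the genome. The windows with 10 or more peaks held 212 of the 301 peaks, or 70.4%, against 27.3% on 20p and 46.5% in the genome. Empty windows numbered 4 of 33 on 20q (12.1%) and 4 of 26 on 20p (15.4%), beside 24.2% in the genome.

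The densest windows of 20q, taken on a grid from position 1, were those starting at 48000001 and 49000001 with 25 peaks each. The window starting at 55000001 followed with 21 peaks, 15 of them with scores of at least the list's median. Windows starting at 46000001, 47000001 and 52000001 tied at 18 peaks. These 3 had 7, 6 and 7 peaks at or above the median score, so their counts rested more on weak peaks. In the window from 49000001 the median score was 251.85 and 17 of its 25 peaks reached the median of the list, against a median score of 98.87 in the window from 46000001.

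By cytogenetic band the density on 20q ran from 0.976 to 24.1 peaks per Mb among bands with peaks that are longer than 1 Mb. Band 20q13.13 stood highest with 82 peaks in 3.4 Mb, or 24.1 per Mb (19.2 to 29.9), followed by 20q13.31 with 25 peaks in 1.5 Mb, or 16.7 per Mb (10.8 to 24.6). The interval of 20q13.13 overlapped that of 20q13.31 and lay above those of all other 20q bands. Bands 20q11.23 and 20q13.12 each had 10 peaks per Mb, with 32 and 43 peaks. Band 20q13.2, the band of ZNF217 and CYP24A1, had 6.35 per Mb (4.37 to 8.91). In it 18 of 33 peaks fell in the single window from 52000001, and the windows from 53000001 and 54000001 held 1 and 2. Band 20q12 was the emptiest with 4 peaks in 4.1 Mb, or 0.976 per Mb (0.266 to 2.50).

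The longest stretch between neighbouring peaks of 20q ran from 39921286 to 42006274 and measured 2.08 Mb. Others over 1 Mb ran from 58638649 to 60449547 (1.81 Mb), from 37785690 to 39076425 (1.29 Mb) and from 52886027 to 53990045 (1.10 Mb). On 20p there were 9 such stretches, the longest 1.84 Mb. Gaps and repeats of the assembly were not marked, so the absence of peaks from a stretch does not show an absence of receptor.

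The main hotspot of 20q straddles a window boundary, and the grid hid its size. On a grid shifted by 500 kb, the window from 48500001 to 49500000 in 20q13.13 held 47 peaks. That equalled the highest count among 3034 shifted windows, shared with the window from 84500001 on chromosome 16. When the 1 Mb could start at any peak centre, chromosome 16 reached 67 peaks, chromosome 20 again 47 and chromosome 17 reached 45, and these were the highest of the 23 chromosomes. The window from 46500001 to 47500000 was the next hotspot of 20q, with 27 peaks. Over 4 Mb, from 46000001 to 50000000, there were 86 peaks or 21.5 per Mb. Among 4 Mb stretches that do not overlap one another, that was the fourth highest, after stretches of chromosomes 16, 10 and 17 with 103, 90 and 89 peaks. These 4 Mb are 11.9% of 20q and held 28.6% of its peaks.

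The 47 peaks of the densest megabase were spread along it and did not form one large cluster. In its 10 intervals of 100 kb there were between 2 and 9 peaks, with the most, 9 and 8, in the intervals from 48900001 and 49000001. Peaks joined where their edges lay within 10 kb gave 25 separate regions, of which the largest held 4 peaks. The largest distance between neighbouring centres was 95.3 kb and the median was 12.6 kb. A neighbouring centre within 10 kb was present for 36 of the 47 peaks. Because the megabase was chosen for its number of peaks, close spacing follows from the choice, and these values only describe it.

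Strong peaks recurred through this megabase. In order along it, peaks with a score of 1000 or more began at 48684745 (1124.82), 48692880 (2796.72), 48901012 (1458.98) and 48943698 (1189.68). They went on at 49067467 (2211.79), 49189839 (1290.39), 49343543 (3100) and 49380095 (2351.58). These were 8 of the 47 peaks of the megabase, against 21 of the 254 peaks on the rest of 20q. On the other chromosomes 10.6% of peaks had such a score. No interval was computed for the megabase, and with so few strong peaks no difference is drawn from these counts. The median score was 166.33 in the megabase (order-statistic 95% interval 100.83 to 297.92) and 119.22 elsewhere on 20q (100.54 to 134.61), and the intervals overlapped. The list's median was reached by 59.6% (Wilson 95% interval 45.3 to 72.4%) of its peaks and 46.5% (40.4 to 52.6%) of the others, which also overlapped. The widest peak of all 20q lay here, at 49377768 to 49379899, with a width of 2132 bp and a score of only 166.33, and its edge was 195 bp from the peak of 2351.58.

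**Figure D2:**
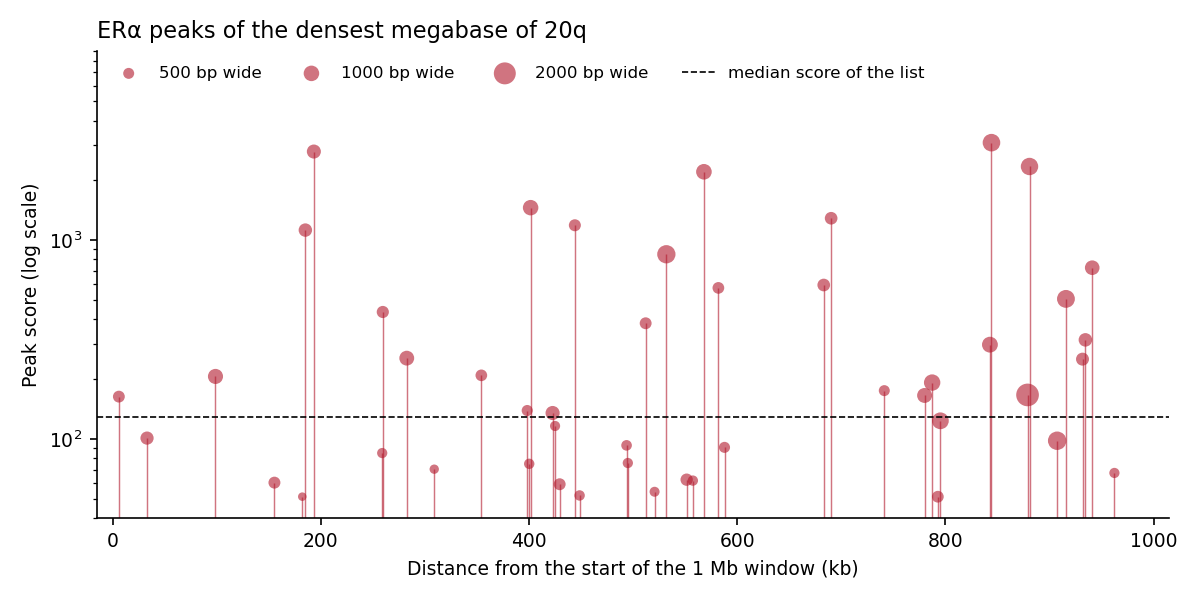
Score of each of the 47 ERα peaks on a log scale (vertical axis) by distance in kb from the start of the 1 Mb window that begins at 48500001 (horizontal axis). The area of a point is proportional to peak width, and the dashed line is the median score of the list, 128.26. Peaks with a score of 1000 or more number 8 and lie in several parts of the window, among weaker peaks.

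ERα peaks on 20q were wider than on 20p and elsewhere, although their scores were alike. The median width was 607 bp on 20q (order-statistic 95% interval 583 to 634), against 492.5 bp on 20p (464 to 522) and 503 bp on the other chromosomes (499 to 506). The difference of 20q minus 20p was 114.5 bp (approximate 95% interval 75.9 to 153). Widths of 1000 bp or more were found for 38 peaks of 20q, against 1 of 20p, or 12.6% (9.34 to 16.9%) against 0.909% (0.161 to 4.97%), where the other chromosomes had 5.43%. Peaks narrower than 400 bp made up 7.31% (4.88 to 10.8%) on 20q, 21.8% (15.1 to 30.4%) on 20p and 22.3% (21.6 to 23.1%) elsewhere. Because the peaks were both denser and wider, they covered 0.603% of 20q, against 0.212% of 20p, a ratio of 2.84.

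Scores did not separate the arms. The score is the value that the authors' caller gave each peak, on a scale that is not stated, and it serves here only to order peaks within the list. Its median was 125.63 on 20q (111.24 to 138.69), 127.49 on 20p (105.11 to 161.24) and 128.46 elsewhere (125.17 to 132.18). The difference of 20q minus 20p was -1.86 with an approximate 95% interval from -33.1 to 29.4. On 20q 146 peaks reached the median of the list, or 48.5% (42.9 to 54.1%), and on 20p 54 did, or 49.1% (39.9 to 58.3%), beside 50% over chromosomes 1 to 22 and X. A score of 1000 or more was held by 29 peaks of 20q (9.63%) and 10 of 20p (9.09%). A score of 3100 or more was held by 5 peaks of 20q (1.66%) and 1 of 20p (0.909%), beside 2.13% over these chromosomes.

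The greater width was present at like score. Among peaks in the lowest score quartile of the list, the median width was 480.5 bp on 20q, 364 bp on 20p and 398 bp elsewhere. In the second quartile the widths were 551 bp on 20q, 443 bp on 20p and 454 bp elsewhere. In the third quartile they were 598.5 bp on 20q, 522 bp on 20p and 529 bp elsewhere. The difference of 20q minus 20p was 116.5 bp (70.1 to 163) in the lowest quartile, 108 bp (52.8 to 163) in the second and 76.5 bp (4.48 to 149) in the third. In the highest quartile it was 91 bp with an interval from -26.7 to 209 bp that includes 0. Width and score followed each other less closely on 20q, with a Spearman correlation across peaks of 0.530, against 0.773 on 20p and 0.633 elsewhere. Peaks are not independent replicates, and no test was made of these correlations.

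**Figure D3:**
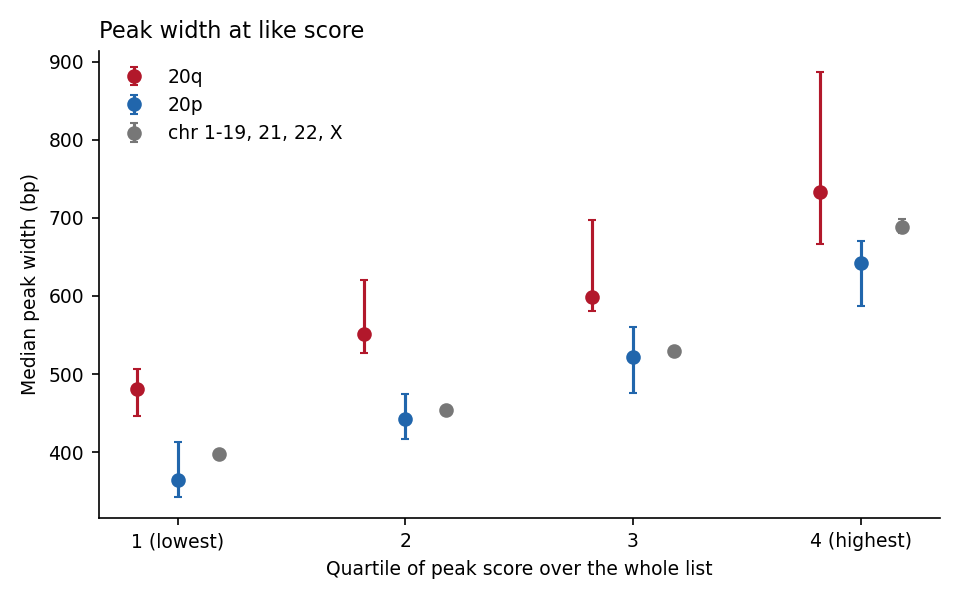
Median peak width in bp (vertical axis) in each quartile of score over the whole list (horizontal axis) for 20q, 20p and chromosomes 1 to 19, 21, 22 and X. Bars are order-statistic 95% intervals of the median, which cover the spread among peaks. The 20q point is the highest of the 3 in every quartile, with intervals clear of both others in the lower 3 quartiles.

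Wide peaks of low score were commoner on 20q than on the other chromosomes. On 20q 7 peaks below the median score were 1000 bp or wider, or 4.52% of 155 such peaks (2.20 to 9.03%), against 1.51% (1.23 to 1.84%) on the other chromosomes. On 20p it was 0 of 56 (0 to 6.42%), an interval that overlapped that of 20q. The peak at 55840703 to 55842164 in 20q13.31 was 1462 bp wide with a score of 68.88, and that at 49406582 to 49407990 in 20q13.13 was 1409 bp wide with a score of 97.80. Another, at 45987186 to 45988420 in 20q13.12, was 1235 bp wide with a score of 73.70. All 7 had another peak centre within 10 kb, where 48.2% of all 20q peaks had one. Among peaks with no other centre within 10 kb, however, 20q was also wider, with a median of 564.5 bp (527 to 607) against 472 bp (449 to 500) on 20p.

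Stretches of 20q were not separated in median width beyond their intervals. By stretches of 4 Mb with at least 10 peaks, it was highest from 50000001 to 54000000 with 700 bp (591 to 798), and lowest in the last 5 Mb, from 58000001, with 522 bp (445 to 610). These intervals overlapped, and the other 5 stretches had medians from 569.5 to 635 bp. In 12 of the 13 windows of 20q with 10 or more peaks, the median width exceeded 536 bp, the median of the 387 such windows on other chromosomes. In 10 of the 13 it exceeded their upper quartile of 592.25 bp. Over the 29 windows of 20q with any peak, the Spearman correlation of peak number with median width was 0.729, and with median score 0.299. These windows share 1 library, and the values describe them only.

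Set against the other chromosome arms, 20q combined a high density with the highest median width. Arms were taken from the hg19 cytogenetic bands without the centromeric ones, and 40 of them had 50 peaks or more. On this measure 20q had 8.95 peaks per Mb (7.97 to 10.02), and of the 40 arms 17q with 9.77 (8.96 to 10.6) and 19p with 9.22 (8.06 to 10.5) stood higher. The 3 intervals overlapped, and the ratio of 20q to 17q was 0.917 (0.793 to 1.06). Median width was highest on 20q, followed by 17q with 592 bp (559 to 615), 3q with 588 bp (563 to 609) and 11q with 579 bp (562 to 611). The difference of 20q minus 17q was 15 bp (-22.9 to 52.9), so these leading arms were not separated. By score quartile of the list, 20q stood first of the 40 arms in the lowest and the second quartile, but was not separated there from 11q or 17q. The difference of 20q minus 11q was 7 bp (-32.1 to 46.1) in the lowest quartile and 12 bp (-44.3 to 68.3) in the second. That of 20q minus 17q was 26 bp (-10.5 to 62.5) and 36.5 bp (-15.8 to 88.8). 20q was rank 3 in the third quartile, with 598.5 bp against 627 bp on 17q and 605 bp on 8q. In the highest quartile it was rank 9, with 733.5 bp against 852 bp on 16q and 817 bp on 17q. The arm closest to 20q in density, 19p, had a median width of 477 bp (456 to 501), and 20q minus 19p was 130 bp (96.0 to 164). Over the 40 arms denser ones tended to have wider peaks, with a Spearman correlation of 0.636 as a description of 1 library. The dense arm 19p stood off that tendency, as did 21q (7.54 peaks per Mb, 492 bp) and 22q (7.36 peaks per Mb, 468 bp). The difference of 20q minus 21q was 115 bp (82.6 to 147).

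**Figure D4:**
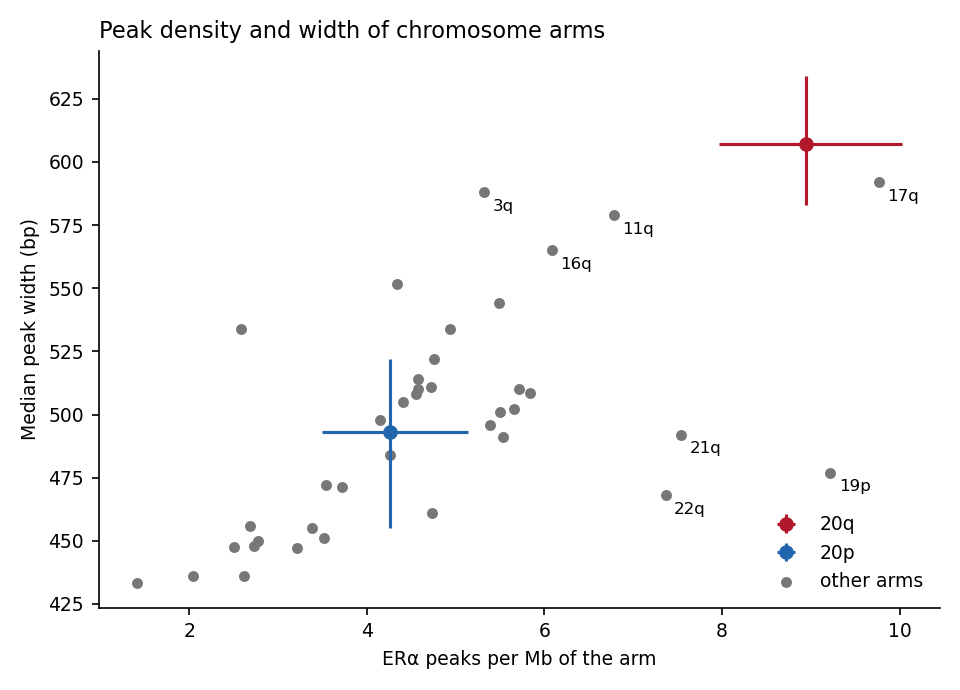
Median peak width in bp (vertical axis) by ERα peaks per Mb (horizontal axis) for the 40 chromosome arms with 50 or more peaks, with 20q, 20p and other arms in separate colours. Bars on 20q and 20p are 95% intervals, exact Poisson for density and order-statistic for width. 20q stands at the upper right near 17q, while 19p, at a density like that of 20q, stands much lower, at 477 bp.

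Peaks of 20q had a shorter median distance to their nearest neighbour than those of 20p and of the other chromosomes. The median distance to the nearest other centre was 11.98 kb on 20q (quartiles 3.24 and 40.9 kb), against 17.9 kb on 20p (5.25 and 69.2 kb) and 17.4 kb elsewhere. Another centre within 10 kb was present for 145 peaks of 20q, or 48.2% (42.6 to 53.8%), and for 45 of 20p, or 40.9% (32.2 to 50.3%), beside 41.4% over chromosomes 1 to 22 and X. The intervals of 20q and 20p overlapped. Other dense arms had similar shares, with 47.5% on 17q, 51.1% on 19p, 48.2% on 21q and 52.8% on 22q. This share was thus not particular to 20q. Peaks more than 200 kb from any other were 13 on 20q (4.32%, 2.54 to 7.25%) and 11 on 20p (10%, 5.68 to 17.0%), against 11.7% (11.1 to 12.3%) elsewhere.

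Compared with the other chromosomes, nearest distances of 2 to 10 kb were commoner on 20q. Between 20q and 20p the intervals overlapped in every class. A nearest centre 2 to 5 kb away was found for 17.9% of 20q peaks (14.02 to 22.7%), 8.18% of 20p peaks (4.36 to 14.8%) and 12.6% elsewhere (12.05 to 13.2%). At 5 to 10 kb the shares were 14.95% (11.4 to 19.4%) on 20q, 18.2% (12.1 to 26.4%) on 20p and 9.64% (9.13 to 10.2%) elsewhere. At 10 to 50 kb they were 31.2% (26.3 to 36.7%) on 20q, 28.2% (20.6 to 37.2%) on 20p and 26.5% (25.7 to 27.3%) elsewhere, and the intervals overlapped. Within 2 kb, 20q had 15.3% (11.7 to 19.8%), 20p 14.5% (9.16 to 22.3%) and the other chromosomes 18.96% (18.3 to 19.7%).

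**Figure D5:**
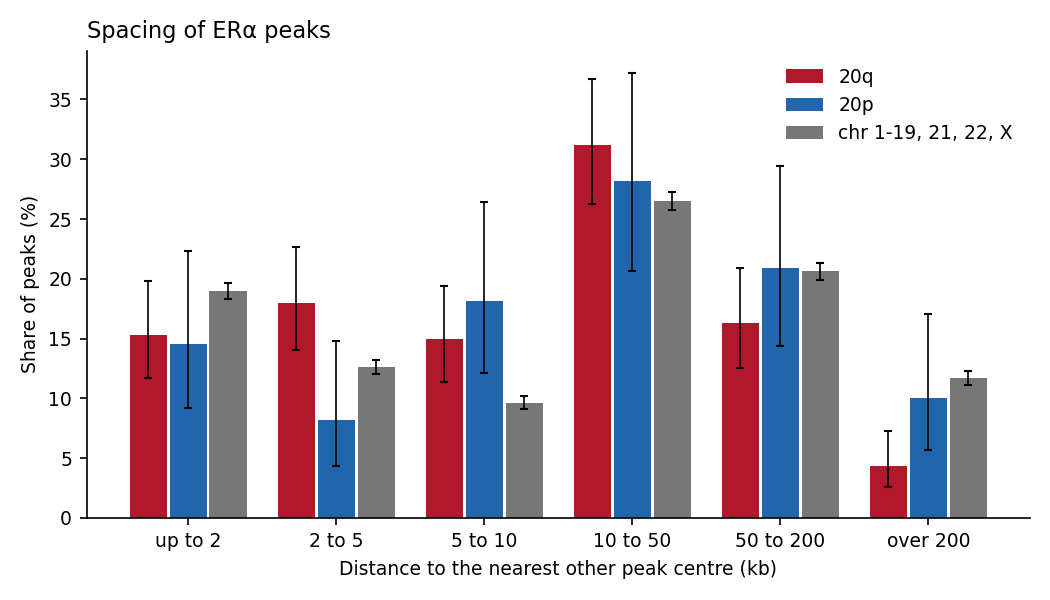
Share of peaks in percent (vertical axis) by distance in kb to the nearest other peak centre (horizontal axis) on 20q, 20p and chromosomes 1 to 19, 21, 22 and X. Error bars are Wilson 95% intervals. On 20q the classes from 2 to 10 kb stand above those of the other chromosomes and the class over 200 kb, at 4.32%, stands below.

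Joining of peaks whose edges lay within 10 kb gave 214 regions on 20q, of which 155 held 1 peak, 38 held 2, 15 held 3, 5 held 4 and 1 held 5. On 20p 81 regions were formed, with 63 single peaks and a largest cluster of 6. Clusters of 5 or more thus took up 1.66% of 20q peaks (0.712 to 3.83%) and 5.45% of 20p peaks (2.52 to 11.4%), beside 7.20% over chromosomes 1 to 22 and X. The value of each arm is that of 1 cluster, and the intervals overlapped. On 17q, the arm most like 20q in density and width, they took up 17.0% (14.1 to 20.4%), and on 19p 8.44% (5.47 to 12.8%). Of 20q peaks, 3.99% (2.30 to 6.84%) had 3 or more others within 10 kb, against 19.04% (15.95 to 22.6%) on 17q. The share was 8.36% over chromosomes 1 to 22 and X. On 20p it was 2.73% (0.932 to 7.71%), an interval that overlapped that of 20q. For clusters of 5 or more, the differences from 20p and the other chromosomes depended on the distance that joins peaks. The order of 20q and 20p turned at both other distances. With edges joined up to 5 kb, clusters of 5 or more took up 1.66% of 20q peaks, 0 of the 110 peaks of 20p (0 to 3.37%) and 3.24% elsewhere. With edges joined up to 20 kb, clusters of 5 or more took up 15.3% of 20q peaks (11.7 to 19.8%), 10% of 20p peaks (5.68 to 17.0%) and 13.8% elsewhere.

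The only cluster of 5 or more on 20q lay at 60927739 to 60943104 in 20q13.33 and spanned 15.4 kb. Its peaks had scores of 113.88, 368.70, 63.88, 87.36 and 50.03 in order, and their centres were 1.14 to 5.57 kb apart. The list's median was reached by 1 of them, that of 368.70, which also lay above the list's upper quartile. The largest group formed at 20 kb lay in the densest megabase, at 48993438 to 49088006, with 10 peaks over 94.6 kb and a top score of 2211.79. A group of 6 at 52686650 to 52744156 in 20q13.2 included 2 strong peaks 3.58 kb apart, with scores of 3100 and 2136.94. Beyond it, peaks at 52765300 and 52811239 scored 2058.93 and 2068.48.

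The 10 highest-scoring peaks of 20q were spread over the arm, with 5 of them in 20q13.13. Exactly 3100 was given to 5 peaks, at 43393680 to 43394913, 47480641 to 47482204, 49343543 to 49344826, 52739582 to 52740786 and 55309710 to 55310919. The score thus does not order these 5, and whether 3100 marks a limit of its scale was not tested. Their widths ran from 1205 to 1564 bp. Next came 46786646 to 46787303 (score 3012.72), which at 658 bp was the narrowest of the 10, and 47314182 to 47315288 (2993.84). The last were 30628013 to 30629140 (2890.37), 48692880 to 48693697 (2796.72) and 35215148 to 35216287 (2683.06). Another centre lay within 10 kb for 8 of the 10, where 48.2% of all 20q peaks had one. On the other chromosomes 205 of the 263 peaks with a score of 3100 or more had one. A near neighbour of strong peaks was thus not particular to 20q. The nearest peak scored below 300 for 8 of the 10, a share close to the 74.8% of all 20q peaks that score below 300. Since the 10 are the highest of the arm, a weaker neighbour follows from their choice. The peak at 52739582, already described, and that at 48692880, whose nearest neighbour scored 1124.82, were the other two. The peak at 43393680 was the most solitary, with its nearest neighbour 18.2 kb away.

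On 20q the share of higher-scoring peaks did not climb at each step in the number of neighbours. At or above the median score were 42.3% (34.8 to 50.2%) of the 156 peaks with no other centre within 10 kb, 56.0% (45.8 to 65.8%) of the 91 with 1, 52.4% (37.7 to 66.6%) of the 42 with 2 and 58.3% (32.0 to 80.7%) of the 12 with 3 or more. These intervals overlapped. On the other chromosomes the shares in the same order were 43.7%, 55.2%, 62.6% and 65.2%, each inside the 20q interval, so 20q was not separated from them. On 20p the shares did not climb at each step either, with 43.1% of 65 peaks, 48% of 25, 76.5% of 17 and 33.3% of 3.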

How the data were processed

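The only measurement used was the authors' deposited list of ERα peaks, called for the ChIP library over the input library. Per the file, each row gives a sequence name, start, end, peak name with the MACS prefix and a score, and the lowest deposited score is 50. The build hg19 and the tools HOMER, Bowtie 0.12.9 and CASAVA 1.8 are named, with no role or order, in the submitters' processing notes. Not given in the sources used here are the caller's version and threshold and the handling of duplicate and multiply mapped reads.

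Deposited starts count from 0, and 1 was added for printing. Peaks were placed in windows and bands by their centre. Chromosome lengths came from GenomeInfoDb 1.38.1 and bands from circlize 0.4.16. Densities carry exact Poisson intervals, shares Wilson intervals, medians order-statistic intervals, and differences of medians an approximate interval combined from these. Functions were tested on simulated data. The planned results on gene starts and on response element letters were not run, since no hg19 annotation or sequence was used. The named-items rule took the 10 highest-scoring 20q peaks, the 5 densest windows (6 with ties) and clusters of 5 or more peaks; other items were chosen after their values were seen. Members and lists were chosen with earlier results of these data known. Figures were drawn with matplotlib 3.10.9, and values computed with SciPy 1.17.1, pandas 2.3.3 and NumPy 2.4.6 under Python 3.11.15.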

Additional observations from a re-analysis of the deposited data

How the results depend on the processing

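The ratio of 20q to 20p in density stayed between 1.74 and 2.30 under 8 of 9 alternatives, with every interval above 1. These were restriction to higher scores, merging, other lengths, light or dark bands, and removal of the 4 Mb hotspot, and the exception was 1.38 per protein-coding gene. Windows of 20q with at least 10 peaks numbered 13, against 12 on the shifted grid, 8 after merging within 10 kb and 4 for peaks at or above the median score. The densest window of 25 peaks became 47 on the shifted grid and from any peak centre. After merging within 10 kb the leading window was that from 55000001 in 20q13.31 with 17 regions, against 15 and 12 in those from 48000001 and 49000001, and for peaks at or above the median score it was that from 49000001 with 17. The share with a neighbour was 33.2% within 5 kb (20p 22.7%, other chromosomes 31.6%), 79.4% within 50 kb (69.1% and 67.7%) and 39.0% for peaks at or above the median score (38.9% and 35.8%). The share at or above the median score was 42.3% among peaks without a neighbour. Clusters of 5 or more took up 15.3% of 20q and 10% of 20p peaks with edges joined up to 20 kb. The width difference of 20q minus 20p ran from 76.5 to 116.5 bp over its alternatives. Band types, gene number, removal of the hotspot, the start at any centre and the other cluster distances were chosen after seeing the data. The alternatives on gene starts and response elements were not run. No paired analysis was possible because the series has a single ChIP and a single input library. Depth, which is unknown, sets how weak a site could be and still be listed.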

Other observations

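Pairs of peaks with edges at most 500 bp apart numbered 14 on 20q and 6 on 20p, or 4.65 pairs per 100 peaks on 20q, 5.45 on 20p and 5.41 on the other chromosomes. In the closest pair of 20q, at 52327532 to 52328330 and 52328346 to 52329275, the gap was 15 bp and the scores were 81.79 and 56.74. In 5 of the 14 pairs, a peak with a score over 2000 stood beside one of 141.22 to 297.92. Such a pair was also present on 20p, with scores of 3213.57 and 217.43. As the stronger peaks are among the highest of their arm, a weaker partner follows from their choice.

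The 47 genes of the lists on breast tumour amplicons, coregulators and transcription factors, and secreted and signalling proteins were all found on 20q in the GRCh38.p14 table. Along the arm, that table gives the order EYA2, NCOA3, SULF2, PREX1, CSE1L, SNAI1, CEBPB, PTPN1, BCAS4 and ADNP, and further on ZNF217, BCAS1 and CYP24A1. No distance between these genes and a peak was measured.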
